A study of Mus musculus with 598 samples.

Results

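Gata4, Gata5 and Gata6 encode the 3 GATA factors of the embryo's mesoderm and endoderm, and their rows were taken by Ensembl gene ID from a table of 40912 genes counted in 598 single mouse cells. GATA factors are zinc finger proteins that bind DNA at the sequence GATA. GATA1, GATA2 and GATA3 are best known from blood, and GATA4, GATA5 and GATA6 from heart, gut and extraembryonic endoderm, where they act with partners such as the T-box and HAND factors and with the FOG cofactors encoded by Zfpm1 and Zfpm2. MESP1 is a basic helix-loop-helix factor that is switched on in the earliest mesoderm leaving the primitive streak, from which the heart and much of the vasculature descend.

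The study sorted single cells that carried a GFP reporter of Mesp1 from gastrulating embryos. Wild type cells from embryonic day E6.75 made up 28.8% of the cells, wild type cells from E7.25 57.02%, and the other 85 cells (14.2%) were labelled knockout, came from E6.75 and carried the reporter as well. The knockout label names no gene, and the labels give no strain, embryo, litter or pool, so each group counts as 1 sample. Cells are not replicates of a condition: intervals below cover counting error only, and no comparison between groups carries a test.

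Depth ran from 101895 to 14159574 reads on genes per cell. The cells fell into 2 library sets by reads of 8 genes, among them Hoxd13, Six3 and Sox3: the cells of set 1, 57.02% of all, had reads of all 8, and the cells of set 2 lacked at least 4 of them. Set 1 held 83 of the E6.75 wild type cells, all 85 knockout cells and E7.25 cells amounting to 28.9% of all cells, and set 2 held the other 89 wild type cells of E6.75 and E7.25 cells amounting to 28.1%. The sets also differed in depth, with median reads of 689539 to 940161 per cell in set 1 and 1799029 to 2264484.5 in set 2, and in Y-linked reads, which 54.9% to 63.9% of the cells of each group had in set 1 and none had in set 2. Comparisons were therefore made within a set. Mesp1 itself stood at 7.40 reads per 1000000 reads on genes (CPM) in the summed knockout cells and at 406 CPM in the wild type cells of the same set. Marker genes of adult bone marrow, the tissue that the protocol text describes, summed to at most 19.1 CPM.

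Gata4 (ENSMUSG00000021944) spans chr14:63198922-63271692 on the minus strand of the mouse genome (GRCm38), with 3904 bases of annotated exon. Gata5 (ENSMUSG00000015627) spans chr2:180325133-180334699, also on the minus strand, with 3277 bases of exon. Gata6 (ENSMUSG00000005836), on the plus strand of another chromosome, has 6508 bases of exon.

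Paralogs of a family can exchange reads where their transcripts match, so the coding sequences were compared first. The longest run of identical bases was 26 between Gata4 and Gata5, 18 between Gata4 and Gata6 and 15 between Gata5 and Gata6. The closest 120 bases that Gata4 and Gata5 share inside 1 coding exon differ at 23 positions, 80.8% identity. The closest 120 bases of Gata4 and Gata6 differ at 23 positions as well. The Gata4 and Gata5 bases are shown because this pair has the longest identical run. Both are on the minus strand, chr14:63204617-63204736 in exon 3 of Gata4 and chr2:180332324-180332443 in exon 2 of Gata5, and capitals mark the bases that differ.
Gata4: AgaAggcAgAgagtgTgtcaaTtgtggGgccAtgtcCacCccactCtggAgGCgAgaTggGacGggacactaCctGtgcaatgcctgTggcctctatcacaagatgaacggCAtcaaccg
Gata5: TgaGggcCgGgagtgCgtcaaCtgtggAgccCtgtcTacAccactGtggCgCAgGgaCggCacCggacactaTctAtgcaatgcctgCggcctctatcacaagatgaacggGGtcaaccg
No stretch of 50 bases in the annotated Gata4, Gata5 or Gata6 transcripts occurred in a transcript of another GATA gene. Gata5 shared 5.05% of its 3228 stretches with the antisense gene Gata5os and Gata6 shared 44 of 6449 with 1010001N08Rik on its opposite strand. Whether counting used the strand is not given in the sources used here, so reads of these stretches cannot be assigned to one of the overlapping genes.

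Gata4 was the most abundant member in wild type cells and was found in nearly every cell. Summed over the cells of a group it stood in library set 1 at 139.3 CPM at E6.75 and 193.8 CPM at E7.25 in the wild type, at 166.1 and 193.03 CPM at the same stages in set 2, and at 48.8 CPM in knockout cells. Per cell, the lowest, median and highest values in set 1 were 10.5, 153.8 and 503 CPM at E6.75 and 0.49, 209.5 and 840 CPM at E7.25. The 4 wild type levels lay within 1.39-fold of each other, and the knockout level was below all of them.

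Gata6, on chromosome 18 and known in the early embryo above all from the endoderm lineages, ran in the opposite order across the stages. Its summed level was 82.4 CPM at E6.75 and 51.7 CPM at E7.25 in set 1, 116.8 and 80.1 CPM in set 2, and 92.4 CPM in knockout cells. The median cell had 80.1 CPM at E6.75, 29.8 CPM at E7.25 and 88.8 CPM in the knockout in set 1, against 96.3 and 61.8 CPM at E6.75 and E7.25 in set 2. The highest cells of the 5 sets of cells reached 379 to 649 CPM and the lowest were at 0 in each. The knockout level lay between the E6.75 levels of both sets.

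Gata5, known from the heart and the endocardium, was the rarest. No Gata5 read was found among 161464619 reads of the 89 E6.75 cells of set 2, which allows up to 0.0186 CPM and up to 3.37% of cells with a read. At E7.25 the cells of the same set gave 1573 reads, 4.27 CPM. Set 1 gave 5.62 CPM at E6.75, 4.44 CPM in the knockout and 9.81 CPM at E7.25, from reads that nearly every cell held.

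Per kilobase of exon, which makes genes comparable, the E7.25 cells of set 2 had 49.4 CPM of Gata4, 12.3 CPM of Gata6 and 1.30 CPM of Gata5. The order was the same in the other wild type cells, and in the knockout Gata6 (14.2 CPM per kilobase) was above Gata4 (12.5 CPM per kilobase).

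**Figure D1:**
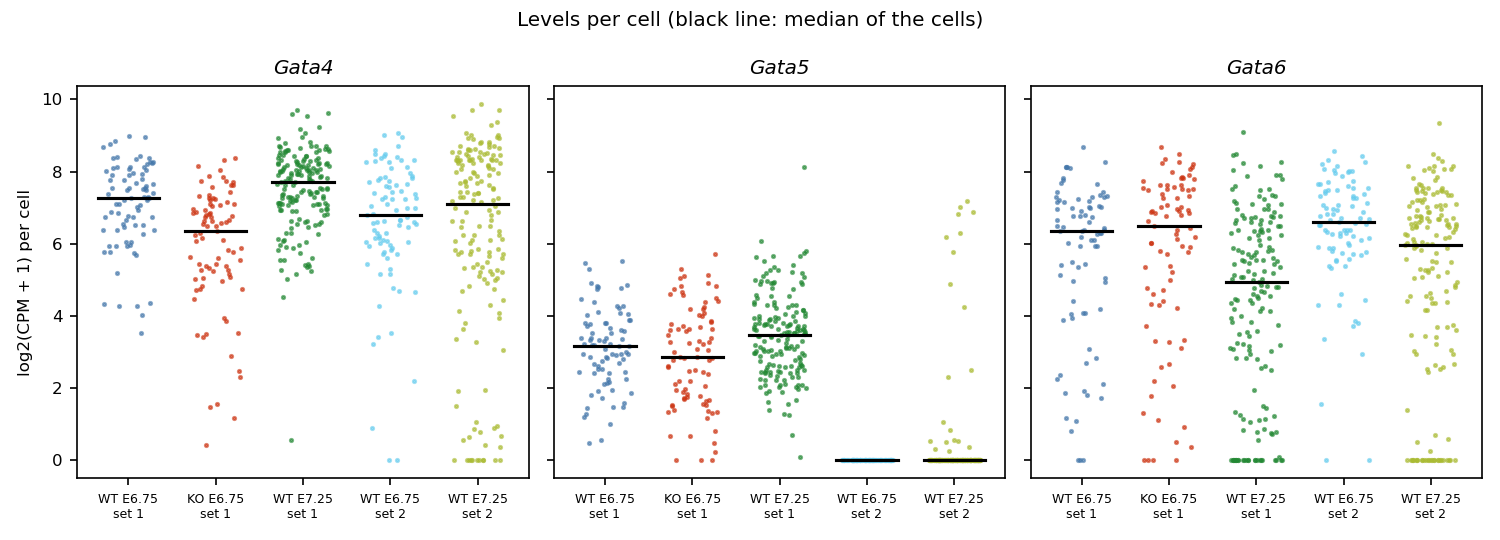
Each point is 1 cell, with log2(CPM + 1) of Gata4, Gata5 or Gata6 on the vertical axis and the 5 combinations of genotype (WT, wild type; KO, knockout), stage and library set on the horizontal axis. Black lines are medians over cells: Gata4 has its lowest median in the knockout cells (80.6 CPM), Gata6 its lowest at E7.25 in set 1 (29.8 CPM), and Gata5 is at 0 in all 89 E6.75 cells of set 2.

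How the reads were spread over cells differed between the members in a way that bears on every value from set 1. In set 1 the number of Gata5 reads per cell did not follow the depth of the cell. With the E6.75 wild type cells split by depth into 4 groups of about equal size, median depth increased 6.7-fold while the median number of Gata5 reads was 5, 6, 6 and 7.5. In knockout cells it was 5.5, 6, 7 and 5 over a 9.1-fold range of depth, and at E7.25 it was 8 in each group. Gata5 was 1 of 95 genes that were read, at E6.75 as at E7.25, in a share of set 1 cells exceeding that of set 2 cells by 70 percentage points or more. Together these genes gave a median of 2611 reads in the shallowest and 3462 in the deepest of the 4 groups of E6.75 wild type cells of set 1, and 34 and 92.5 in set 2. Their source was not tested, and a low Gata5 count in a set 1 cell cannot be read as expression.

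Gata4 showed part of the same pattern in set 1 and none of it in set 2. Every cell of set 1 held Gata4 reads, at least 24 in wild type E6.75 cells, 2 in knockout cells and 7 at E7.25, whereas 2 E6.75 cells and 11 E7.25 cells of the deeper set 2 held none. In wild type cells Gata4 reads followed depth: at E6.75 the median was 53 reads in the shallowest and 273.5 in the deepest group of set 1, and 60 and 482 in set 2. In knockout cells they did not, with 38, 68, 50 and 56 reads over the 9.1-fold range. Across the 85 knockout cells Spearman's rho of CPM with depth was -0.78 for Gata4 and -0.81 for Gata5, a pair of values that share depth as divisor, and -0.11 for Gata6. Gata6 reads increased with depth in each set of cells, 22-fold between the shallowest and deepest of the 4 groups of knockout cells and 5.95-fold in the wild type cells of the same set.

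**Figure D2:**
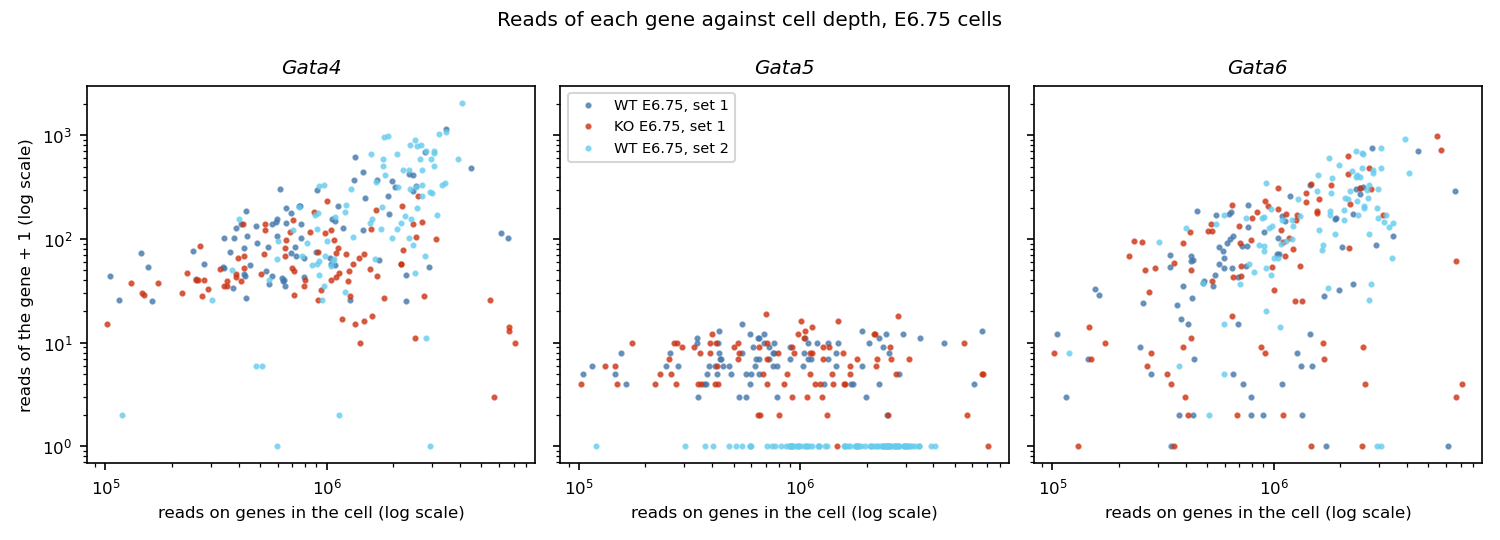
Each point is 1 E6.75 cell, with its reads on genes on the horizontal axis and its reads of Gata4, Gata5 or Gata6 plus 1 on the vertical axis, both on log scales. Gata5 forms a level band of up to 18 reads in wild type and knockout cells of set 1 and lies at 0 in set 2, Gata4 climbs with depth in both wild type sets but not in the knockout cells, and Gata6 climbs in all 3.

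The knockout comparison asked how the sorted cells differ when the knocked-out gene is missing at E6.75. Gata4 was 2.82-fold lower in knockout than in wild type cells of set 1, a log2 ratio with 1 CPM added of -1.49 (95% exact interval from read counting -1.54 to -1.45). The median cell had 80.6 CPM against 153.8 CPM. The interquartile range was 32.97 to 137.4 CPM in the knockout and 85.2 to 251.3 CPM in the wild type, so the cells overlapped. Knockout cells were the deeper group, with a median of 940161 reads against 689539, and since their Gata4 reads did not follow depth, how much of the 48.8 CPM comes from reads of the level kind was not tested. Gata4 passed the 2-fold line in a comparison where 7.64% of 13934 genes were at least 2-fold lower and 4.80% at least 2-fold higher, and its ratio lay at the 2.69th percentile of these genes. Of the cell type markers measured, 6 of 10 for extraembryonic mesoderm and 7 of 8 for haemato-endothelial cells were at least 2-fold lower and 0 higher. The latter list includes Gata2. The drop was not particular to these tissues. For nascent mesoderm, a list with Mesp1 in it, 7 of 9 were lower, and for paraxial and presomitic mesoderm 5 of 7, with 0 higher in both. For parietal endoderm, 5 of 9 were lower and 1 higher. For epiblast, 2 of 10 were higher and 0 lower. Whether the mix of cells differed between the groups was not tested.

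Gata6 had a log2 ratio of 0.16 (0.12 to 0.21) and Gata5 of -0.28 (-0.43 to -0.13), neither past 2-fold, so 1 of the 3 members was called. Where a fixed number of reads weighs least, in cells of at least 1000000 reads, Gata4 had a log2 ratio of -1.94, from 30.9 CPM in 41 knockout cells against 121.6 CPM in 31 wild type cells. With the reads of each cell thinned at random to 100000, where all cells weigh alike, the log2 ratio was -0.85, short of 2-fold, so that the call was lost. Gata4 was lower in the knockout both among cells with Y-linked reads (38.4 against 105.6 CPM) and among those without (68.6 against 200.8 CPM). Gata6 turned with that split: its log2 ratio was -0.14 among cells with Y-linked reads and 0.58 among those without. Both Gata5 values of this comparison are made of reads that stay level with depth, and its log2 ratio turned positive in thinned cells, at 0.12.

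For Gata4 the share of cells with a read was also lower in the knockout at equal depth. After thinning to 100000 reads, a Gata4 read was left in 90.6% of knockout cells (Clopper-Pearson 95% interval 82.3% to 95.8%) and 98.8% of wild type cells (93.5% to 99.97%). Gata6, whose summed level was slightly higher in the knockout, was left in 82.4% and 84.3%. At least 3 Gata4 reads were left in 80% of knockout and 92.8% of wild type cells, and at least 3 Gata6 reads in 70.6% and 71.1%. The intervals cover the counting of cells within 1 sample per group. The Gata4 shares include the reads that stay level with depth.

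Of the other genes of the family and its cofactors, Gata2 and Zfpm1 were at least 2-fold lower in the knockout. Gata2, a blood stem cell factor, had a log2 ratio of -1.29 (1.14 against 4.26 CPM). Gata2 reads lay in only 7.06% of knockout and 18.1% of wild type cells. The 10% of cells with the most held all of the knockout reads and 96.5% of the wild type reads. As the difference of mean log2(CPM + 1) per cell, Gata2 was at -0.48. Gata3, known from T cells and trophoblast, had a log2 ratio of -0.51 (13.1 CPM in the knockout). Gata3 reads were level with depth in the knockout cells, as Gata5 reads were, with medians of 12.5, 13, 10 and 13 in the 4 groups by depth. Gata1, the red cell factor, was below 1 CPM in both groups. Zfpm1 had a log2 ratio of -1.92 (1.73 against 9.37 CPM), while Zfpm2 was at or below 0.40 CPM in each set of cells. Of the 5 GATA genes above 1 CPM in the higher group, 2 were at least 2-fold lower and 0 at least 2-fold higher, with a median log2 ratio of -0.51 against -0.03 over all genes, of which 7.64% were lower and 4.80% higher.

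The stage comparison asked what differs between E6.75 and E7.25 in wild type cells, and in set 1 it shares its E6.75 cells with the knockout comparison. Gata6 was lower at E7.25 in both sets, with log2 ratios of -0.66 (-0.70 to -0.62) in set 1 and -0.54 (-0.56 to -0.51) in set 2. Its difference was larger per cell, at -1.20 and -1.43 in the mean of log2(CPM + 1). Cells without a Gata6 read numbered 24 at E7.25 against 3 at E6.75 in set 1, and 27 against 2 in set 2, and those with a read made up 86.1% against 96.4% and 83.9% against 97.8%. In thinned cells the share with a Gata6 read was 72.3% (64.9% to 78.8%) at E7.25 and 84.3% (74.7% to 91.4%) at E6.75 in set 1, and 73.2% (65.8% to 79.7%) and 95.5% (88.9% to 98.8%) in set 2. Both sets thus held a larger share of cells without Gata6 at the later stage.

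Gata4 was slightly higher at E7.25, with log2 ratios of 0.47 (0.44 to 0.50) in set 1 and 0.22 (0.20 to 0.24) in set 2. In set 2 the mean per cell went the other way, at -0.39. That set held both more cells near 0 and more high cells at E7.25: the interquartile range was 34.7 to 317.7 CPM, against 61.9 to 217.5 CPM at E6.75, and 11 cells against 2 had no read. In set 1 the ratio rested on cells with Y-linked reads, where it was 0.80, and was 0.03 in those without. For Gata6 the same split gave -1.17 and -0.26.

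Neither Gata4 nor Gata6 passed 2-fold between stages, where 7.84% of 14127 genes were at least 2-fold higher and 4.73% at least 2-fold lower in set 1, and 6.12% and 2.60% of 14260 in set 2. Gata5 was at least 230-fold higher at E7.25 than at E6.75 in set 2, against a floor of 3 reads over the E6.75 cells, and had a log2 ratio of 0.71 (0.59 to 0.83) in set 1, where the level reads are part of both values. So 1 of the 3 members was past 2-fold in set 2 and 0 in set 1.

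Gata5 reads at E7.25 came from few cells. In set 2, 20 cells (11.9%, 7.43% to 17.8%) held a read, 9 of them a single read, and the 9 cells of at least 10 CPM held 52 reads or more each, 17.99 to 143.99 CPM with a median of 77.1. The 10% of cells with the most Gata5 held 99.8% of all Gata5 reads of that set. In set 1, 11 E7.25 cells (6.36%) held 20 or more Gata5 reads, above the 18 reads that no E6.75 cell of that set exceeded, with a median of 30.2 CPM. The others kept within the level band.

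In both sets the cluster with the most Gata5 cells was the same. Clusters were made within each group from genes other than Gata1 to Gata6. Genes that tell the sets apart were also left out, by a lower limit than 70 percentage points, in either direction and at either stage. The cluster led by Bmp4, Hand1 and Pmp22 was extraembryonic mesoderm-like by 8 of the 9 markers counted for that tissue at 2-fold. Foxf1, among the genes left out by this lower limit, was not counted. The cluster held 6 of the 9 Gata5 cells of set 2 among its 13 cells. In set 1 it held 6 of the 11 Gata5 cells among its 31. The cluster with Stra6, Foxc2 and Sfrp1 in the lead held 2 of the 9 and 1 of the 11. The remaining Gata5 cells were 1 in the cluster led by Tbx3, Kdr and Mixl1 in set 2 and 4 in the cluster led by Tdgf1, Efna3 and Lhx1 in set 1. The Bmp4 and Hand1 cluster also held 6 of the markers listed for cardiac progenitors at 2-fold (Nkx2-5, Tbx20, Mef2c, Smarcd3, Isl1 and Myl4) and 6 of those for haemato-endothelial cells, among them Etv2, Kdr and Tal1.

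Some of the Gata5 cells also held reads of the antisense gene. Gata5os had 0 reads in each of the 3 sets of E6.75 cells. At E7.25 it was read in 9 cells of set 2, 5 of which were among the 9 Gata5 cells, and in 4 cells of set 1, 3 of which were among the 11. Those cells held 83.3% of the Gata5os reads of set 1 but 33.9% of those of set 2, where most lay in other cells. Unlike Gata5, Gata5os gave no level band of reads in set 1.

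Most cells held Gata4 and Gata6 together. With each cell thinned to 100000 reads, both were found in 79 of the 89 E6.75 cells of set 2, Gata4 without Gata6 in 3, Gata6 without Gata4 in 6 and neither in 1. At E7.25 in set 2, 59.5% of cells held Gata4 and Gata6 without Gata5, 9 cells held all 3, 1 held Gata4 and Gata5, 30 held Gata4 alone, 14 Gata6 alone and 14 none. No thinned cell of set 2 held Gata5 without Gata4, but only 10 held Gata5, and Gata4 was left in 83.3% of all E7.25 cells of that set. The 9 cells of at least 10 CPM of Gata5 had a median of 234.6 CPM of Gata4 (116.99 to 745) and 129.8 CPM of Gata6 (9.99 to 330.7), against 117.7 and 60.97 CPM in the other E7.25 cells of set 2. The cluster led by Bmp4, Hand1 and Pmp22, which held 6 of the 9, had medians of 251.9 and 94.4 CPM over its 13 cells of set 2.

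**Figure D3:**
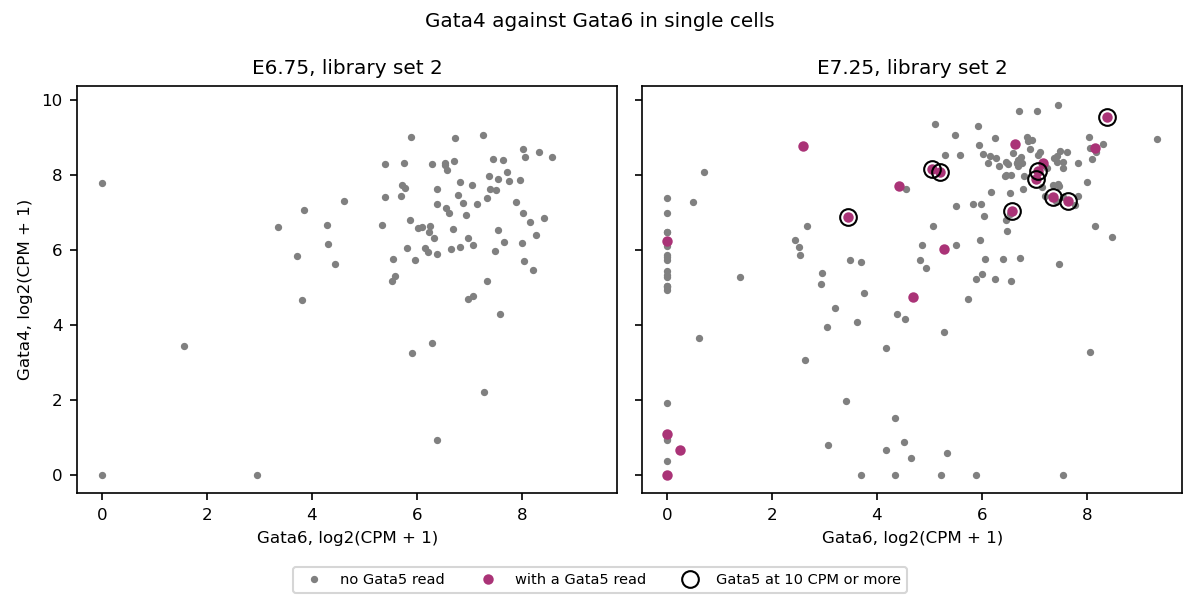
Each point is 1 wild type cell of library set 2, with Gata6 on the horizontal and Gata4 on the vertical axis, both as log2(CPM + 1); filled coloured points hold a Gata5 read and circled points have at least 10 CPM of Gata5. At E6.75 almost all cells hold both genes and none holds Gata5, and at E7.25 cells with neither, with Gata4 alone and with both at high level appear, with the 9 circled cells all above 100 CPM of Gata4.

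Gata4 and Gata6 varied together most at E7.25 in set 2, and only weakly in the other sets of cells. Spearman's rho between them across cells was 0.63 over the E7.25 cells of set 2 and 0.27 over the 89 E6.75 cells, and in set 1 it was 0.25 and 0.14, with 0.05 in knockout cells. These values describe cells within 1 sample per group. In the E7.25 cells of set 2, rho of CPM with depth was 0.07 for Gata4 and -0.02 for Gata6. Between Gata4 and Gata6 it was 0.57 in the same cells after thinning. At E6.75 it was Gata4 alone that went with Hand1, a partner factor of extraembryonic and cardiac mesoderm: rho was 0.71 for Gata4 and 0.03 for Gata6 in set 2, and 0.35 and -0.16 in set 1. In the knockout cells, where Hand1 stood at 5.38 CPM, neither followed it, with -0.04 and -0.13.

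Across the clusters of E7.25, Gata4 and Gata6 were high in 4 of the 9 clusters in set 2. In the cluster led by Tbx3, Kdr and Mixl1 the median cell held 356 CPM of Gata4 and 113.9 of Gata6, and in the cluster led by Otx2, Lhx1, Sfrp1 and Myl7 it held 322.9 and 141.01 CPM. Next came the clusters led by Tdgf1, Efna3 and Lhx1, with 308.9 and 112.3 CPM, and by Bmp4 and Hand1, with 251.9 and 94.4 CPM. The interquartile ranges of these 4 clusters overlapped for Gata6, and for Gata4 all pairs overlapped except the Otx2 cluster (311.2 to 412 CPM) and the Bmp4 cluster (167.1 to 286.5 CPM).

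The low clusters of set 2 were of another kind. Cells led by Hoxb1, T and Fst had 3 of 10 nascent mesoderm markers at 2-fold (Rspo3, Tbx6 and Hoxb1). They also had the presomitic genes Tbx6, Dll1 and Msgn1 and the epiblast genes Pou5f1, Utf1 and Cdh1 at 2-fold. Their median was 36.2 CPM of Gata4 and 0.63 CPM of Gata6. Cells led by Stra6, Foxc2 and Sfrp1, with the paraxial genes Meox1 and Tcf15 at 2-fold, had 33.2 and 16.9 CPM. Cells led by Cldn6, Cdh1 and Cldn7 held all 10 markers listed for definitive endoderm and axial mesoderm at 2-fold. They also held 4 of 10 epiblast markers (Epcam, Cdh1, Fgf5 and Slc7a3) and the visceral endoderm markers Apoa1, Rbp4 and Spink1 at 2-fold. They are therefore not named after 1 tissue. These cells had little Gata4 (41.4 CPM) beside 87.6 CPM of Gata6, with Gata6 reads in 9 of the 12 cells. In set 1 the median Gata6 of this cluster was 12.1 CPM. The cluster led by Uba6, Enah and Sav1 was low in Gata4 (12.9 CPM) but not in Gata6 (55.6 CPM). It was the shallowest E7.25 cluster, with a median of 484237.5 reads per cell over both sets. No listed tissue had 3 or more markers at 2-fold in it. The 6 cells led by Lefty1, Myrfl and Lefty2 had 61.8 CPM of Gata4 and 6.28 CPM of Gata6.

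Set 1 differed from this order for both genes. Gata6 was low in the Hoxb1 cluster there too (0 CPM in the median cell), but its highest median was in the shallow Uba6 cluster (95.8 CPM). The Stra6 and Foxc2 cluster (48.5 CPM) lay level with the Tdgf1 and Efna3 cluster (49.8 CPM) for Gata6. For Gata4 the median was 227.7 CPM in the Hoxb1 cluster and 269.2 CPM in the Stra6 and Foxc2 cluster, close to the 274.8 CPM of the Tdgf1 and Efna3 cluster, while the Otx2 cluster, high in set 2, was at 156.3 CPM. The Cldn6 and Cdh1 cluster, low in set 2, had the lowest Gata4 median of set 1 as well (45.7 CPM). The low Gata4 of the Hoxb1 and Stra6 clusters thus rests on set 2, and the reason for the disagreement was not tested.

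**Figure D4:**
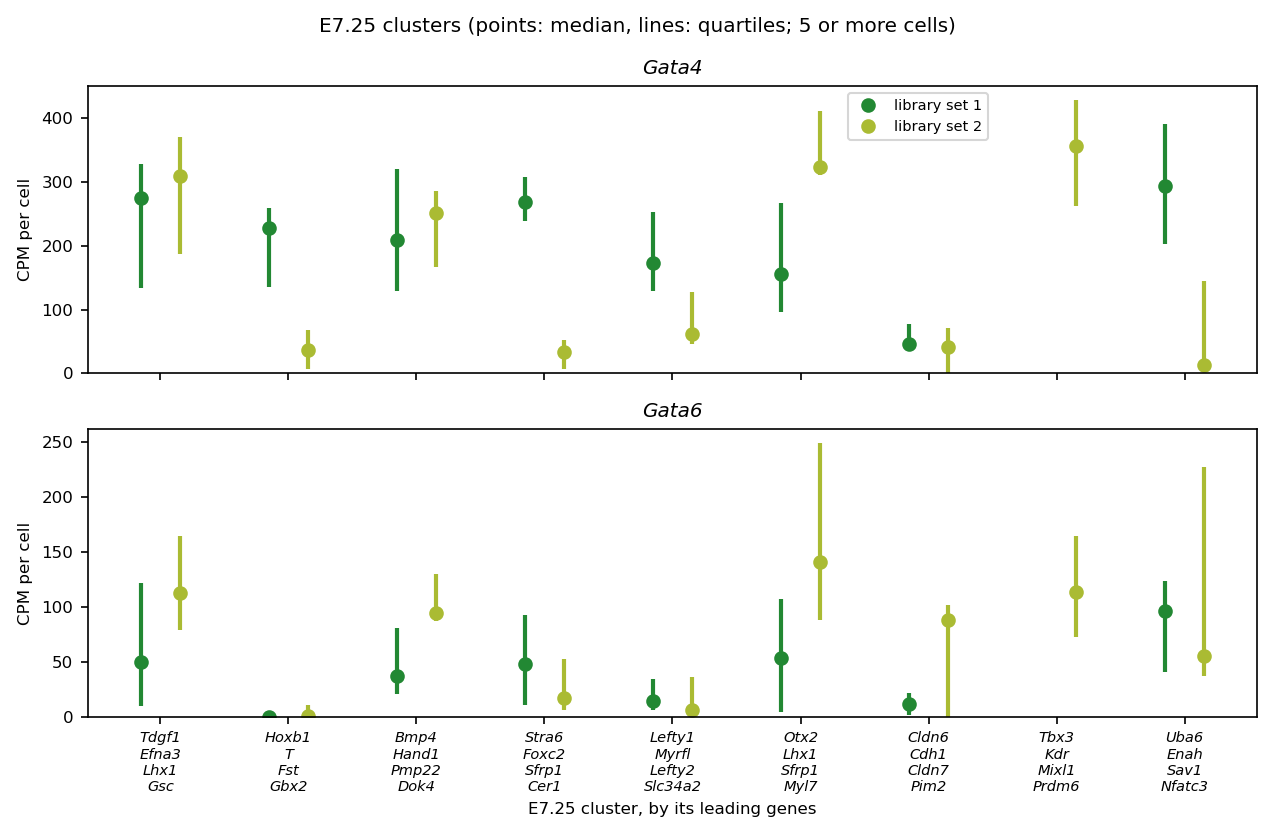
Points are medians and lines the quartiles of CPM per cell of Gata4 (upper panel) and Gata6 (lower panel) in the E7.25 clusters, named by their 4 leading genes, for each library set with at least 5 cells. The quartile ranges of the sets overlap in the Bmp4 and Hand1, Tdgf1 and Efna3 and Cldn6 and Cdh1 clusters for Gata4, and do not overlap in the Hoxb1, Stra6, Lefty1 and Uba6 clusters, where set 1 is higher, or in the Otx2 cluster, where set 2 is.

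At E6.75 the cluster with the highest median of Gata4 was the same in both sets. That cluster, led by Hand1, Pmp22 and Klhl6, extraembryonic mesoderm-like by 5 markers at 2-fold, had a median of 262.4 CPM in set 1 and 270.6 CPM in set 2. The cluster led by Fgf5, Apln and Tgfbr3 had 65.6 and 68.1 CPM, the lowest median of set 1, whereas in set 2 the clusters led by Slc34a2 (54.05 CPM) and by Tgfbr3 and E2f8 (58.5 CPM) lay below it. Gata6 did not follow: it was at 25.4 and 112.3 CPM in the Hand1 cluster and at 75.9 and 124.9 CPM in the Fgf5 cluster. Its lowest median in set 2, 40.1 CPM, was in the cluster led by Igfbp3, Irf1 and Alox15. Within the knockout cells the cluster medians of Gata4 were 48.4 to 107.7 CPM and those of Gata6 23.5 to 127.6 CPM, and no knockout cluster reached the Gata4 level of the wild type Hand1 cluster.

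Gata4 and Gata6 are also expressed in visceral and parietal endoderm, so the markers of those layers were read in the same cells. Of 12 visceral endoderm markers, 9 to 11 were below 1 CPM in each set of cells, and their summed level was 3.8 to 19.4 CPM, mostly from Rbp4 and Amn. Ttr was at most 0.15 CPM, Afp at most 0.03 CPM and Hnf4a at most 0.11 CPM, and 0 to 5 cells of a set had more than 100 CPM of the 12 markers together. Parietal endoderm markers, which include the widely expressed Lama1, Sparc and Col4a1, summed to 797 to 1070 CPM. In the wild type cells, whose Gata4 was at 139.3 to 193.8 CPM, most visceral endoderm markers were thus below 1 CPM. Rbp4 and Amn were exceptions, with 11.7 and 5.59 CPM and reads in 50.6% and 31.5% of the E7.25 cells of set 2. Parietal endoderm markers were not low, and whether some Gata4 reads came from endoderm cells was not tested.

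Genes whose pattern across E7.25 cells was most like a member's were ranked by Spearman's rho averaged over both sets, among 8178 genes. For Gata4 they were Prdm6 (0.49), Hs3st3b1 (0.47), Tbx3 (0.47), Kdr (0.44), Efna3 (0.42) and Ppic (0.41). Prdm6 had 0.73 in set 2 and 0.24 in set 1, and rho in set 2 was higher than in set 1 for each of the 6. For Gata6 they were S100a10 (0.48), Tbx3 (0.45), Tmeff1 (0.44), Prdm6 (0.42), St6galnac4 (0.42) and Hs3st3b1 (0.41). The Gata4 and Gata6 lists shared Prdm6, Tbx3 and Hs3st3b1, but the Gata6 list changed with the processing. In thinned cells 3 of its 6 genes were kept and in set 2 alone 2 of 6, and neither of those lists held any of the 3 shared genes, whereas 5 of the 6 Gata4 genes were kept in each. The median gene had a mean rho of -0.01 with either, and the 99th percentile was 0.26.

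For Gata5 the list depended on the set most. Foxf1 (0.51), B4galt6 (0.46), Tenm3 (0.45), Sh2b3 (0.41), Rala (0.41) and St3gal2 (0.41) led in the mean, from values of 0.71 to 0.75 in set 1 and 0.08 to 0.27 in set 2. In knockout cells the same genes had 0.80 to 0.89 with Gata5, in cells where Gata5 reads stay level with depth and where depth divides both values. In set 2 alone, where 20 cells hold Gata5, the leading genes were Wtap (0.36), Capn6 (0.36), Degs1 (0.35), Tbx20 (0.35), Slc2a3 (0.35) and Mgarp (0.35), and 0 of the 6 were shared.

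The partners with which GATA4 is known to act in the heart were read in the same comparisons. In the knockout, 3 of 9 measured partner factors were at least 2-fold lower and 0 higher, against 7.64% and 4.80% of all genes (median log2 ratio -0.74 against -0.03). They were Hand1 at -3.41, Tbx20 at -2.35 and Nkx2-5, which reached only 1.19 CPM, at -1.06. Hand2, Isl1 and Mef2a were at -0.48, -0.74 and -0.67, none past 2-fold. At E7.25, 4 of 10 were at least 2-fold higher and 1 lower in set 1, against 7.84% and 4.73% of all genes (median 0.55 against 0.02), and 3 higher and 0 lower in set 2, against 6.12% and 2.60% (median 0.60 against 0.04). Mef2c was higher in both, at 1.60 and 1.46, and Tbx20 had 1.17 and 0.69.

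Many heart muscle genes with known GATA sites were not measurable in these cells. Of 11 such genes, 7 were below 1 CPM in the knockout comparison, 6 in the stage comparison of set 1 and 5 in that of set 2. Myl7, an atrial myosin light chain, stood at 2.25 CPM in the knockout against 33.01 CPM in the wild type, and at E7.25 at 186.4 CPM in set 1 and 165.5 CPM in set 2. Actc1, the cardiac actin, had log2 ratios of 2.08 and 2.78 between stages. In the knockout 1 of 4 measured genes of this list was at least 2-fold lower, against 7.64% of all genes (median -0.70 against -0.03). Between stages 2 of 5 were higher in set 1, against 7.84% of all genes (median 0.67 against 0.02), and 4 of 6 in set 2, against 6.12% (median 2.05 against 0.04).

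Endoderm genes that GATA factors are known to act on gave no single direction in the knockout: 2 of 6 were at least 2-fold higher and 2 lower, against 4.80% and 7.64% of all genes (median -0.40 against -0.03). Foxa2 was at 10.5 against 3.79 CPM and Sox17 at 1.77 against 0.02 CPM, while the basement membrane gene Col4a1 was at 9.57 against 22.5 CPM and Sox7 at 0 reads, which allows up to 0.0263 CPM, against 1.53 CPM. At E7.25, 5 of 7 were higher in set 1, against 7.84% of all genes (median 1.30 against 0.02), and 2 of 5 in set 2, against 6.12% (median 0.32 against 0.04), and none was at least 2-fold lower. Col4a1 (1.20 and 1.30) and Dab2 (1.35 and 1.01) were higher in both. Sox17, below 5 CPM in the knockout comparison, and Sox7 were named after their values were seen.

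Signals that are known to induce Gata4, above all the BMP ligands, were lower in the knockout in part. Of 11 measured genes of the list of inducing signals and upstream factors, 3 were at least 2-fold lower and 1 higher, against 7.64% and 4.80% of all genes (median -0.44 against -0.03). One of the 3 was Mesp1, which was nearly lost in these cells, so 2 of the other 10 were lower, Bmp4 at -1.39 and Bmp2 at -1.09, and Nodal was higher at 1.30. Their receptors and transducers Bmpr1a, Bmpr2, Smad1 and Smad5 lay between -0.89 and 0.03. Eomes, the T-box factor of the streak, was at 0.15 in the knockout and lower at E7.25, at -0.74 and -0.82, as Gata6 was. Between stages 2 of 12 were higher and 1 lower in set 1, against 7.84% and 4.73% of all genes (median 0.17 against 0.02), and 5 higher and 1 lower in set 2, against 6.12% and 2.60% (median 0.12 against 0.04), with Bmp4 at 2.66 and 1.63 and Nodal at -4.34 and -3.06.

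Of the other GATA genes, Gata1 alone had the same direction between stages in both sets. It was higher at E7.25, with log2 ratios of 2.06 and 1.87, from 0.24 and 0.71 CPM at E6.75. Gata1 reads lay in 13.3% of the E7.25 cells of set 1 and 22.6% of those of set 2. The 10% of cells with the most held 99.4% and 98.3% of them. As the difference of mean log2(CPM + 1) per cell, Gata1 was at 0.24 and 0.39. Gata2 was higher in set 1 (1.44) and lower in set 2 (-0.58), and Gata3 was at 0.32 in set 1 and -2.04 in set 2. Gata3 reads were level with depth in the E7.25 cells of set 1, with medians of 12, 14, 17 and 13 in the 4 groups by depth, and were 9, 12, 18 and 19.5 in its E6.75 wild type cells. Of the 6 GATA genes 2 were at least 2-fold higher and 0 lower in set 1, against 7.84% and 4.73% of all genes, and 2 higher and 1 lower in set 2, against 6.12% and 2.60%.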

How the data were processed

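Single-cell RNA sequencing libraries of 598 sorted mouse cells were counted by the authors into 1 table of raw read counts per Ensembl gene; the submitters' processing notes name GSNAP, HTSeq (version 0.5.3p3) and the build mm10. The deposited counts were used as they are. Of 40912 IDs, 40254 matched a symbol in GENCODE M21 (GRCm38), which also gave exon lengths, positions and transcript sequences. Members and gene lists were chosen with earlier results of these data known.

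Within a library set, each group's reads were added up over its cells, scaled to the total and compared as log2 ratios with 1 CPM added. A gene counted as past 2-fold if it had at least 1 CPM in the higher group. Read intervals are exact Poisson or conditional binomial and shares have Clopper-Pearson intervals (95%). With 1 sample per group no p-value was computed. A count of 0 was taken to allow 3 counts. Cells were thinned to 100000 reads for shares. Clusters came from leidenalg 0.10.2 (2000 variable protein-coding genes of at least 10 CPM in sum, none Y-linked or mitochondrial, 20 principal components, 15 neighbours, Leiden resolution 1, genes centred within library sets); doublets were not called. They were called by up to 4 leading genes, and like a tissue only from the markers listed for it. Named genes were the members, Mesp1, the GATA and FOG genes, the 6 genes most like each member by rho among genes read in at least 25% of thinned E7.25 cells of both sets, and up to 4 genes of at least 5 CPM per list with the largest ratio; Sox17, Sox7, Nkx2-5 and other list members outside this rule were picked with their values in view. The ratio code was checked on simulated counts. Alternatives used TMM factors (edgeR 4.0.16), median-of-ratios factors (DESeq2 1.42.0), means per cell, 10 CPM added, thinned cells, both library sets, cells without the deepest 5%, cells with or without Y-linked reads and, added after the data were seen, cells of at least 1000000 reads. No count test was run.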

Additional observations from a re-analysis of the deposited data

How the results depend on the processing

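The log2 ratios below are for Gata4, Gata5 and Gata6 in that order. For knockout against wild type (-1.49, -0.28 and 0.16) they were -1.44, -0.23 and 0.22 with TMM scaling, -1.46, -0.25 and 0.20 with median-of-ratios scaling, -1.20, -0.27 and 0.11 as the difference of means per cell, -1.34, -0.11 and 0.15 with 10 CPM added, -0.85, 0.12 and 0.11 in thinned cells, -1.66, 0.82 and -0.17 with the wild type cells of both sets, -1.24, -0.18 and 0.19 without the deepest 5% of cells, -1.44, -0.70 and -0.14 where Y-linked reads were found, -1.54, 0.33 and 0.58 where they were not, and -1.94, -0.19 and 0.21 in cells of at least 1000000 reads. For E7.25 against E6.75 in set 1 (0.47, 0.71 and -0.66) they were, in the same order, 0.46, 0.70 and -0.68, then 0.45, 0.69 and -0.69, then 0.41, 0.34 and -1.20, then 0.45, 0.34 and -0.58, then 0.39, 0.59 and -0.64, then 0.31, 1.21 and -0.55 over both sets, then 0.40, 0.56 and -0.71, then 0.80, 0.38 and -1.17, then 0.035, 1.09 and -0.26, and 0.51, 0.91 and -0.69 in the deep cells. In set 2 (0.22, 2.40 and -0.54) they were 0.17, 2.33 and -0.58 with TMM, 0.16, 2.31 and -0.59 with median-of-ratios, -0.39, 0.39 and -1.43 per cell, 0.21, 0.51 and -0.49 with 10 CPM added, 0.32, 2.70 and -0.46 in thinned cells, 0.31, 1.21 and -0.55 over both sets, 0.37, 2.37 and -0.51 without the deepest 5%, and 0.19, 2.35 and -0.54 in deep cells. The Y-linked split could not be made in set 2.

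Gata4 was lower in the knockout under all 10 alternatives, past 2-fold in 9 and short of it in thinned cells, and Gata6 lower at E7.25 under all of those run, while the Gata5 and Gata6 directions in the knockout and the Gata4 direction in set 2 were not stable; apart from the splits and the weighting of cells by construction, the cause was not tested. With no minimum level the shares of genes past 2-fold in the knockout were 2.61% higher and 4.15% lower. The share of cells with a Gata5 read in the richest cluster of E7.25 cells in set 2 was 61.5%, and 31.4% when genes were not centred within sets. No paired analysis was possible because the labels name no shared embryo or litter and no result comes from a test. The Gata5 values of set 1 are limited by reads that do not follow depth.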
